A study of Mus musculus with 52 samples.

Results

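Messenger RNA levels of the nucleus accumbens were compared with those of the hippocampus across all genes in mice that had received saline. The comparison rests on the 6 libraries titled as accumbens under basal conditions, the saline control, and the 6 titled as hippocampus under the same condition, out of 52 libraries in the study. The animals were C57BL/6J males aged 3 months with a jugular catheter, with no transgene named, and the saline group was infused awake for 3 h while other mice were given insulin at 4 or 12 mU/kg/min with glucose as needed. Tissue was snap frozen after death, total RNA was extracted, and stranded libraries were sequenced in pairs of short reads. The libraries are not tied to separate animals in the labels, so every p-value below reflects library-to-library spread alone, some of which may be technical.

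The nucleus accumbens is the ventral part of the striatum. Most of its neurons are GABA-releasing spiny projection neurons, which carry either D1 or D2 dopamine receptors, are sparsely joined by large cholinergic interneurons, and integrate dopamine from the midbrain with glutamate from cortex, amygdala and hippocampus. The hippocampus is part of the pallium, where the principal cells are glutamatergic granule cells of the dentate gyrus and pyramidal cells of the fields CA1 to CA3, and serves memory and navigation.

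The values are read counts per gene, given here as CPM, each library's counts scaled to a common effective size. Totals ran from 3423230 to 7258565 counts in the accumbens libraries (median 4789474.5) and from 3240822 to 6038216 in the hippocampus libraries (median 4053667). No 2 libraries of a region agreed within sampling noise, the lowest chi-square per gene among 30 pairs being 3.61. Because whole tissue was sequenced, fewer cells of a type and less RNA per cell cannot be told apart in any value below.

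The marker genes matched the labels in all 12 libraries. Drd1, the D1 dopamine receptor (chromosome 13, 54051183 to 54055705, GRCm38), lay at 196, 330.5, 250.2, 209.8, 196 and 188 CPM in accumbens libraries 1 to 6. The same gene lay at 5.98, 8.07, 7.77, 8.69, 8.14 and 7.95 CPM in hippocampus libraries 1 to 6. Neurod6, a transcription factor of pallial excitatory neurons (chromosome 6, 55677822 to 55681263), read 5.32, 0.974, 17.2, 0.175, 0.132 and 0.826 CPM in the accumbens and 188, 181, 154, 149, 102 and 125 CPM in the hippocampus. Neither gene overlapped between regions. The spread of Neurod6 across the accumbens was the wider, with library 3 far above the others.

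Some libraries stood apart within their region, and their values are given before the results because several gene groups follow them. In the accumbens, Slc17a7, the vesicular glutamate transporter of cortical and hippocampal neurons, measured 263, 48.3, 703, 1.58, 1.84 and 16.5 CPM. Libraries 1 and 3 exceeded 100 CPM and were also the highest for Neurod6, Neurod2, Tbr1 and Cck. Irs4, an insulin receptor substrate, moved the other way, at 33.1, 32, 3.21, 75.3, 73.4 and 71.9 CPM, and libraries 4 to 6 are those of the highest range of tag numbers. Gabrq, a GABA-A receptor subunit of hypothalamic and brainstem neurons, was likewise lowest in library 3 and highest in libraries 4 to 6, with 3.8 CPM in library 3 and 70.5, 73.6 and 69.2 CPM in libraries 4 to 6. A list of 12 hypothalamic peptide genes summed to 6.42 CPM in accumbens library 3, to between 16.2 and 69.2 in the 5 others, and to between 1.16 and 5.81 in the hippocampus.

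Hippocampal libraries differed by other genes. Ttr, the transthyretin gene of the choroid plexus, read 110.1, 23.1, 16.7, 407, 20.9 and 1219 CPM, so libraries 1, 4 and 6 exceeded 100 CPM. A list of 15 choroid plexus markers, each with a count in both regions, summed to values from 72.9 to 1542 CPM in the hippocampus and from 47.3 to 100.2 in the accumbens. Zic1, a transcription factor of septum and thalamus, was 52.1 and 136 CPM in libraries 5 and 6 against 8.25 to 35.1 CPM in the other 4. Slc5a7, the choline transporter, stood at 15.9 CPM in library 6 and at most at 0.718 CPM in the others. Cortical layer markers, 18 in all, summed to 648 to 782 CPM in the accumbens and 451 to 512 in the hippocampus. The list holds Foxp2, counted below as a striatal gene, at a mean of 90.4 CPM in the accumbens against 4.15. The sum is therefore not a measure of cortical tissue alone. Accumbens library 3 was the highest, but library 1, high in Slc17a7, summed to 670 CPM and library 2 to 725 CPM. The part of these markers in the regional differences was not tested beyond leaving the libraries out.

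**Figure D1:**
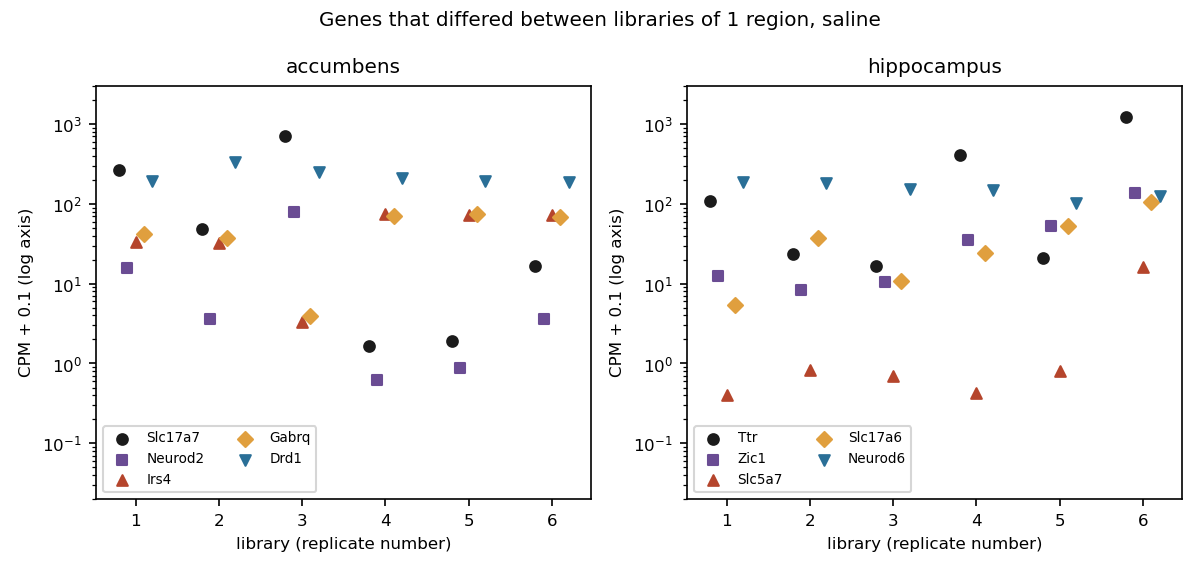
Levels (CPM plus 0.1, log axis) of 5 genes in each of the 6 saline libraries of the accumbens (left) and the hippocampus (right), by library number. In the accumbens Slc17a7 ran from 1.58 to 703 CPM and Irs4 was lowest in library 3, while Drd1 stayed between 188 and 330.5. In the hippocampus Ttr, Zic1 and Slc17a6 were highest in library 6.

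Across 13319 genes tested, 4230 (31.8%) differed at an adjusted p under 0.05, of which 2145 (16.1%) were higher and 2085 (15.7%) lower in the accumbens. The shares called higher and lower are the background for the counts of every gene list below. The median log2 fold change of all tested genes, accumbens over hippocampus, was 6e-04. Differences between regions are given below on this log2 scale, so that a negative value is a lower level in the accumbens. A stricter test asked whether the difference exceeded a log2 fold change of 1, a 2-fold difference, and called 789 genes (5.92%), with 425 (3.19%) higher and 364 (2.73%) lower. In 1112 of the 13319 genes every accumbens library exceeded every hippocampus library, and in 1187 of the 13319 the order was the opposite.

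**Figure D2:**
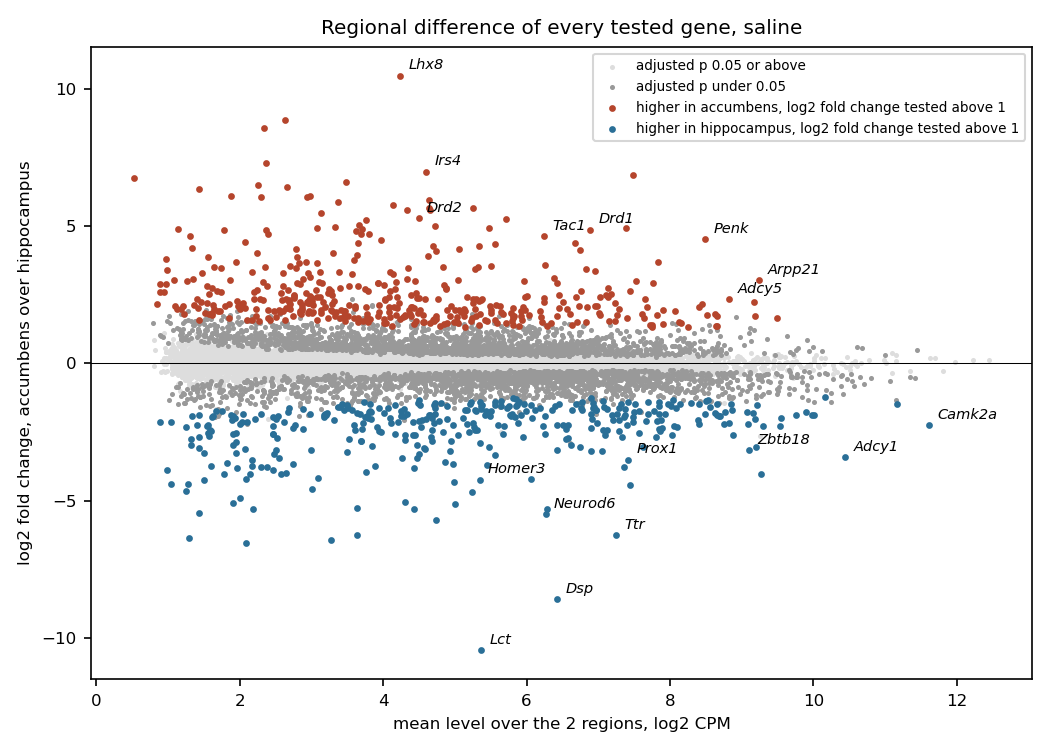
Log2 fold change (accumbens over hippocampus, vertical axis) against mean level (log2 CPM, horizontal axis) for the 13319 genes tested in saline libraries. Coloured points are the 425 genes higher (red) and 364 lower (blue) when tested against a log2 fold change of 1. The fitted value of Lhx8, at the top, has no count in the hippocampus and is not a measure of fold.

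Genes of spiny projection neurons were higher in the accumbens. Of 21 tested members of a list of their signalling genes, 20 were higher in the accumbens and 1 was lower, where 16.1% of all tested genes were called higher. The median log2 fold change of the list was 2.04 against 6e-04 for all genes. In 20 members every accumbens library exceeded every hippocampus library, as it did in 1112 of the 13319 genes tested. Rgs9, which ends G protein signalling, was at 115 to 187 CPM (median 132) in the accumbens against 8.61 to 14.5 CPM (median 11.9) in the hippocampus, a difference of 3.58 (SE 0.15, adjusted p = 2.32e-11). Every accumbens library exceeded every hippocampal one. Ppp1r1b encodes DARPP-32, the phosphatase inhibitor that relays dopamine signals, and it spanned 147 to 286 CPM (median 204) against 11.4 to 37.1 CPM (median 17.3), with hippocampus library 1 the highest of its region (3.44, SE 0.25, adjusted p = 3.07e-08). Arpp21, a cAMP-regulated phosphoprotein gene, was higher by 3.03 (SE 0.14, adjusted p = 3.22e-11) on the log2 scale, from 892 to 1491 CPM against 114 to 151. The phosphodiesterases Pde10a and Pde1b, which break down cyclic nucleotides, were higher by 2.04 and 1.89, the olfactory-type G protein Gnal by 1.75 and the sodium channel subunit Scn4b by 2.65. Sh3rf2, a ubiquitin ligase gene, was at 16.8 to 23.8 CPM (median 20.5) against 0 to 0.969 CPM (median 0.116) (5.87, SE 0.37, adjusted p = 1.63e-09). Prkcd, a protein kinase C gene that the list holds and that thalamic neurons also express, was the exception. It was lower, at -0.90 (SE 0.22, adjusted p = 0.00395), the regions overlapped, and it was -0.65 (adjusted p = 0.085) without the 3 hippocampal libraries with Ttr above 100 CPM.

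Both output pathways were represented. Of 10 genes of direct-pathway neurons, which carry D1 receptors, 9 were higher and 1 lower (median 2.48), and all 7 tested genes of indirect-pathway neurons, which carry D2 receptors, were higher (median 4.53). Drd1 differed by 4.87 (SE 0.17, adjusted p = 1.32e-12). Tac1, the substance P precursor, covered 78.5 to 284 CPM (median 117) in the accumbens, where library 2 was the highest, and 2.69 to 8.97 CPM (median 5.3) in the hippocampus (4.63, SE 0.35, adjusted p = 1.35e-07). Pdyn, the dynorphin precursor, ranged over 86 to 162 CPM (median 106) against 11.1 to 16.3 CPM (median 14.3) (2.98, SE 0.17, adjusted p = 4.37e-10). Chrm4, a muscarinic receptor, was higher by 1.76 (SE 0.21, adjusted p = 3.08e-06). Isl1, a LIM homeodomain factor of direct-pathway and cholinergic neurons, had 716 counts over the 6 accumbens libraries and 5 over the 6 hippocampal ones, and its levels were 13.4 to 35.1 CPM (median 21.4) against 0 to 0.966 CPM (median 0.0969). Eya1, listed with direct-pathway neurons, went the other way at 2.89 to 6.72 CPM (median 3.69) against 11.4 to 18.3 CPM (median 13.9) (-1.83, SE 0.21, adjusted p = 3.08e-06), with no overlap.

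Among indirect-pathway genes, Drd2, the D2 receptor, was at 31.6 to 54 CPM (median 44.3) in the accumbens and 0.598 to 2.25 CPM (median 0.94) in the hippocampus (5.29, SE 0.23, adjusted p = 3.06e-11). Adora2a, the excitatory adenosine receptor of these neurons, measured 37.9 to 62.6 CPM (median 48) against 0.322 to 1.79 CPM (median 0.977) (5.57, SE 0.26, adjusted p = 7.61e-11). For both receptors the regions were far apart, and no library fell between 2.25 and 31.6 CPM. Penk, the enkephalin precursor, was also present in the hippocampus, at 19 to 43.1 CPM (median 28.9), and reached 561 to 829.4 CPM (median 670.3) in the accumbens (4.53, SE 0.18, adjusted p = 6.78e-12). Gpr6, a constitutively active receptor, was at 27.7 to 41.9 CPM (median 34.8) against 0.233 to 1.2 CPM (median 0.613) (5.78, SE 0.24, adjusted p = 1.47e-11). Sp9, a transcription factor of these neurons, was higher by 2.15 (SE 0.25, adjusted p = 2.55e-06), while Plxdc1 differed least, by 0.74 (SE 0.18, adjusted p = 0.00344).

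**Figure D3:**
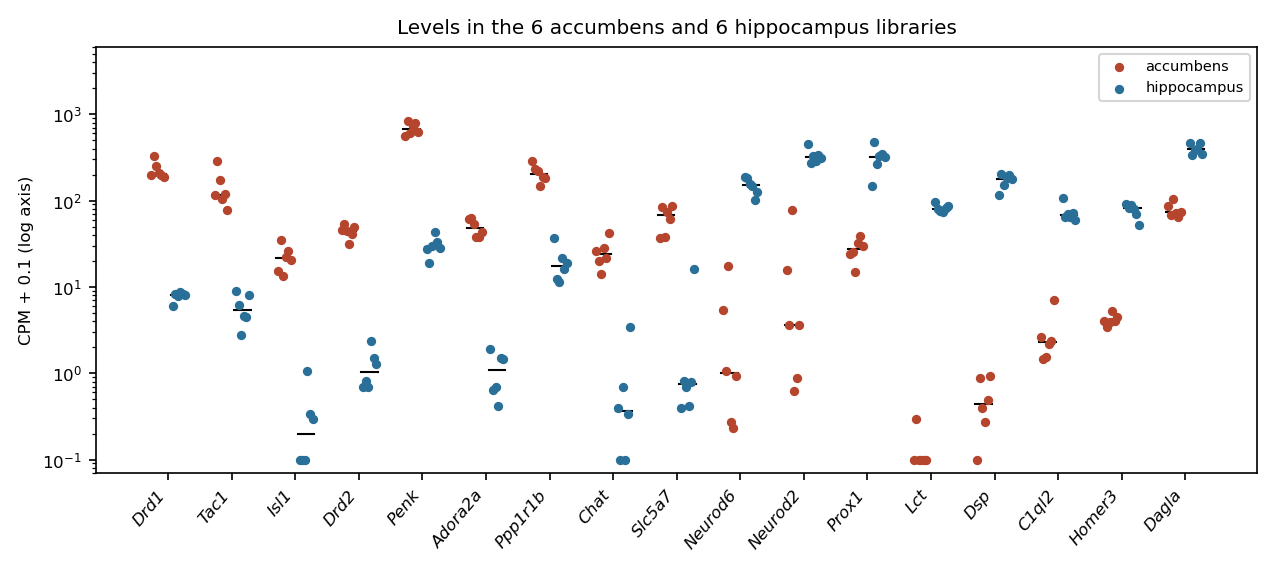
Levels of 17 genes (CPM plus 0.1, log axis) in each of the 6 accumbens (red) and 6 hippocampus (blue) saline libraries, with black bars at the medians. Accumbens points lie above hippocampal points for the genes from Drd1 to Slc5a7 and below them for those from Neurod6 to Dagla, with no overlap in any of the 17.

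Of 9 genes listed for the ventral striatum, 8 were higher and Crym, a thyroid hormone binding protein, was not called (0.26, adjusted p = 0.363). Drd3, the D3 receptor of the islands of Calleja and accumbens shell, had 166 counts in the accumbens and 1 in the hippocampus. Its ratio of summed counts per effective library size was 133, with a 95% interval from 23.5 to 5280 that covers counting error only. Oprk1, the kappa opioid receptor that dynorphin activates, ranged over 35.6 to 72.3 CPM (median 51.6) against 0.598 to 2.91 CPM (median 1.38) (5.00, SE 0.26, adjusted p = 1.93e-10). Cartpt, the CART peptide precursor, was at 17.4 to 47.2 CPM (median 29.4) against 0.718 to 2.09 CPM (median 1.24) (4.49, SE 0.34, adjusted p = 1.71e-08). Nts, the neurotensin precursor, was higher by 3.00 (SE 0.42, adjusted p = 6.12e-05), with 14.9 CPM in accumbens library 3 and 32.2 CPM or more in the 5 others. Peg10, a gene of retrotransposon origin, and Arhgap36 were higher by 3.69 and 5.65 and, like Irs4, were lowest in library 3 and highest in libraries 4 to 6. Peg10 read 121 CPM and Arhgap36 6.72 CPM in library 3, against 37 CPM or more for Arhgap36 in the others.

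Of 25 tested striatal transcription factors, 21 were higher, 1 was lower and 3 were not called, with a median log2 fold change of 2.38, also with Lhx8 set to the bound given next. Lhx8, needed for cholinergic and GABA neurons of the ventral forebrain (chromosome 3, 154306294 to 154330659), had 1229 counts in the accumbens and 0 in the hippocampus. With 3 counts over the 6 hippocampal libraries as the limit, Lhx8 was at least 312-fold higher, and its accumbens levels were 32.9, 45.4, 14.3, 41.9, 43.9 and 47.9 CPM. Nkx2-1, which patterns the medial ganglionic eminence and is kept in pallidal neurons, had 346 counts against 1, a ratio of 277 with a 95% counting interval from 49.4 to 11000. Six3 spanned 25.1 to 45.9 CPM (median 41.9) against 0 to 1.61 CPM (median 0.947) (5.57, SE 0.32, adjusted p = 7.51e-10). Foxp2, a forkhead factor, was higher by 4.35 (SE 0.45, adjusted p = 4.81e-06) and Meis2 by 2.92 (SE 0.15, adjusted p = 2e-10). Rarb and Rxrg, the retinoic acid receptors of striatal neurons, were higher by 3.49 (SE 0.19, adjusted p = 4.99e-10) and 5.23 (SE 0.32, adjusted p = 1.5e-09). Dlx6, a homeobox gene of GABA neurons, differed by 3.48 (SE 0.23, adjusted p = 3.27e-09), and Foxp1 by a smaller 0.86 (SE 0.14, adjusted p = 9.45e-05). Bcl11b, also known as Ctip2, was lower in the accumbens (242 to 447 CPM (median 278) against 375 to 524 CPM (median 414)), at -0.45 (SE 0.15, adjusted p = 0.0241). The regions overlapped for Bcl11b, and it lost the call without any of 5 single libraries (accumbens 1, 4, 5 or 6, or hippocampus 2), with adjusted p from 0.0518 to 0.0637. Zic1 was not called over all libraries (1.42, adjusted p = 0.108) and reached 2.28 (adjusted p = 0.00207) without hippocampus library 6 and 2.84 (adjusted p = 6.85e-05) without libraries 5 and 6.

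All 8 genes of a cholinergic neuron list were higher in the accumbens, with a median log2 fold change of 6.24. That median is unchanged with Lhx8 set to its bound. The summed level of the 8 was 111.5 to 264 CPM in the accumbens, 21.7 CPM in hippocampus library 6 and 0.897 to 2.09 CPM in the 5 other hippocampal libraries. Chat, which makes acetylcholine, spanned 14 to 41.7 CPM (median 23.9) against 0 to 3.29 CPM (median 0.266) (4.89, SE 0.53, adjusted p = 3.54e-06). Slc18a3, which loads acetylcholine into vesicles, had 247 counts against 9 (4.40, SE 0.55, adjusted p = 6.61e-06), and Slc5a7, which takes up choline, ranged over 36.8 to 86.8 CPM (median 67.2) against 0.299 to 15.9 CPM (median 0.648) (4.16, SE 0.73, adjusted p = 0.000888). Without hippocampus library 6 the log2 fold changes of Chat, Slc18a3 and Slc5a7 were 6.78, 6.70 and 6.76. Within the highest tag range Slc5a7 was not called (3.49, adjusted p = 0.0519). Ngfr, the p75 neurotrophin receptor, was at 14.6 to 62.8 CPM (median 18.8) against 0.299 to 1.94 CPM (median 0.764) (4.72, SE 0.49, adjusted p = 2.03e-06), with accumbens library 6 the highest. Slc10a4, a vesicle protein of cholinergic and monoamine neurons, was higher by 6.06 (SE 0.38, adjusted p = 1.87e-09). Gbx1, a homeobox gene of basal forebrain neurons, had 304 counts against 2, a ratio of 122 with a 95% counting interval from 33.4 to 1010.

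Promoter sequence was read for a few of these genes, and for genes of the hippocampus described next, to show the DNA just before the annotated start. RefSeq tables for GRCm38.p6 held an entry for 146 of the 195 genes named here and for 10170 of the tested genes. Each stretch holds the 250 bases before the start, 5′ to 3′ on the gene's strand. Capitals mark 1 motif per gene, searched for on both strands. Other motifs stay in small letters, so the CAGATG in the Tac1 stretch and the TGACG in the Neurod2 stretch are not marked. For Gpr6 this is the full cAMP response element TGACGTCA, for Tac1 and Slc18a3 its half-site TGACG, and for Neurod2 and Prox1 the E-box CAGATG, to which NeuroD-type bHLH factors can bind. The full element contains the half-site, and a match on the reverse strand reads CGTCA.
Gpr6 (chr10:41072291-41072540, strand minus): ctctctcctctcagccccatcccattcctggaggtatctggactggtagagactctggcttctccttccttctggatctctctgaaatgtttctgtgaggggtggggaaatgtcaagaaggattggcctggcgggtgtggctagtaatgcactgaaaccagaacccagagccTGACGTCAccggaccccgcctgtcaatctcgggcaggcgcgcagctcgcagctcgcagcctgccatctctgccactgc
Tac1 (chr6:7554811-7555060, strand plus): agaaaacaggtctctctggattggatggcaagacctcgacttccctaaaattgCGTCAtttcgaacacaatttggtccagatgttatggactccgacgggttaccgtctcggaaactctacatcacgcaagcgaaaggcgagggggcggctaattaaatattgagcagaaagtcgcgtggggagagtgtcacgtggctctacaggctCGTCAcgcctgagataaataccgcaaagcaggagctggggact
Slc18a3 (chr14:32464851-32465100, strand minus): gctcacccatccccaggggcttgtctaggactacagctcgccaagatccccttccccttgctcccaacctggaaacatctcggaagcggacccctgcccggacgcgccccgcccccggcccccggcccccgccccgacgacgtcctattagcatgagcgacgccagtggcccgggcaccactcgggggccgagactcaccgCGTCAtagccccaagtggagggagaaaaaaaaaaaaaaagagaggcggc
Neurod2 (chr11:98329646-98329895, strand minus): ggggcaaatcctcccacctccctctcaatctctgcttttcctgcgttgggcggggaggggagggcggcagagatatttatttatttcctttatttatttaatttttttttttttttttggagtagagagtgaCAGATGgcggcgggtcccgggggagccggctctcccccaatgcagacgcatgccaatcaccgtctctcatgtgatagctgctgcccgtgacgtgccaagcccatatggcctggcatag
Prox1 (chr1:190170828-190171077, strand minus): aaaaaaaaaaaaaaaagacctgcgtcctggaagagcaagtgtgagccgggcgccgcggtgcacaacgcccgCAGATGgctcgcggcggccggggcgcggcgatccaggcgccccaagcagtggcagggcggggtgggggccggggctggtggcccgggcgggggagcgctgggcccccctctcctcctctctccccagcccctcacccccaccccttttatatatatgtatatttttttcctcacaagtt
The Gpr6 match lay 78 bases before the start, the Tac1 matches 197 and 43 bases before it and the Slc18a3 match 49 bases before it, counted to the motif's left end, and those of Neurod2 and Prox1 118 and 179 bases before it. These matches are descriptions of letters and not shown to be bound. TGACG was present in 27.5% of the promoters of all tested genes, in 18.8% of 319 genes higher in the accumbens beyond a log2 fold change of 1, and in 17.5% of 263 genes lower beyond it. TGACGTCA was present in 2.9%, 2.2% and 1.1% of the same sets, and CAGATG in 9.8%, 13.2% and 14.1%. The upstream 250 bases of Drd1, Drd2, Pdyn, Neurod6, Lct, C1ql2, Dsp and Lhx8 held none of these motifs. Those of Chat held 1 TGACG and those of Isl1 held 2. Slc18a3 lies inside the Chat locus, and the Chat window (chromosome 14, 32465860 to 32466159) lies upstream of the Slc18a3 window on the same strand.

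The hippocampus was marked by its transcription factors. Of 24 tested pallial transcription factors, 18 were lower in the accumbens, 0 were higher and 6 were not called, with a median log2 fold change of -1.29. Neurod6 was lower, at -5.48 (SE 0.72, adjusted p = 9.69e-05). Without accumbens libraries 1 and 3, its log2 fold change was -8.22 (adjusted p = 8.62e-11), and 20 of the 24 factors were lower and 1 higher. Neurod2, its close relative, ranged over 0.526 to 78.2 CPM (median 3.51) against 272 to 449.5 CPM (median 320.2) (-4.43, SE 0.95, adjusted p = 0.00421), again with accumbens library 3 the highest. Neurod1, needed for granule cells, was lower, at -3.97 (SE 0.40, adjusted p = 9.94e-07), Bhlhe22 at -4.21 (SE 0.47, adjusted p = 1.44e-05) and Fezf2, a factor of deep-layer projection neurons, at -4.02 (SE 0.45, adjusted p = 1.99e-06). Zbtb18, a zinc-finger repressor, spanned 79.3 to 173 CPM (median 105) against 869.7 to 1227 CPM (median 959) (-3.15, SE 0.17, adjusted p = 4.37e-10). Nr3c2, the mineralocorticoid receptor, was 40.5 to 57.8 CPM (median 48) against 236 to 294 CPM (median 261) (-2.45, SE 0.11, adjusted p = 2.32e-11). The narrow ranges of Nr3c2 contrast with Tbr1, a cortical factor, whose accumbens levels of 7.54 to 105 CPM (median 12.5) overlapped the hippocampal 47.2 to 65.5 CPM (median 53.9) (-0.85, adjusted p = 0.323). Without accumbens library 3 Tbr1 was lower, at -1.74 (adjusted p = 0.000761). Mef2c, which reached 428 CPM in accumbens library 3, was not called at 0.36 (adjusted p = 0.386). Its sign changed without libraries 1 and 3 (-0.12, adjusted p = 0.642) and within the highest tag range (-0.33, adjusted p = 0.0206). Emx1, a homeobox gene of the dorsal forebrain, was lower, at -2.46.

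Dentate gyrus genes were mostly lower in the accumbens. Of 14 tested, 11 were lower in the accumbens, 2 were higher and 1 was not called, with a median of -2.50. Lct, the lactase gene, which granule cells express (chromosome 1, 128284756 to 128328318), had 1 count over the 6 accumbens libraries and 2048 over the hippocampal ones. Its hippocampal levels were 96.3, 80.2, 76.5, 74.4, 81 and 86 CPM. The ratio for Lct was 2560, with a 95% counting interval from 459 to 101000. Dsp, the junction protein desmoplakin (chromosome 13, 38151294 to 38198577), was 0 to 0.826 CPM (median 0.343) in the accumbens and 117 to 205 CPM (median 179) in the hippocampus (-8.59, SE 0.27, adjusted p = 7.12e-13). Every hippocampal library held over 100 CPM of Dsp and every accumbens library under 1 CPM. Prox1, which sets granule cell identity, was present in both regions, at 14.9 to 38.8 CPM (median 27.4) against 147 to 478 CPM (median 323) (-3.50, SE 0.26, adjusted p = 5.97e-08). The complement-related synaptic proteins C1ql2 and C1ql3 were lower, at -4.68 (SE 0.29, adjusted p = 2.47e-09) and -2.76 (SE 0.50, adjusted p = 0.00112), and Tdo2, a tryptophan-degrading enzyme, at -3.14 (SE 0.32, adjusted p = 5.01e-07). Calb1, the calcium buffer calbindin, and Pdzd2 went against the list. Calb1 was higher by 0.42 (SE 0.13, adjusted p = 0.0227) with overlapping regions, and lost the call without any 1 of accumbens libraries 2 or 5 or hippocampus libraries 5 or 6 (adjusted p from 0.0512 to 0.063). Pdzd2 was higher by 0.54 (SE 0.12, adjusted p = 0.00186).

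Pyramidal cell fields followed in part. Of 9 CA1 genes, 5 were lower and 2 higher (median -1.03), of 11 CA3 genes 8 were lower and 1 higher (median -1.39), and of 7 CA2 genes 1 was lower and 2 higher (median 0.00). Fibcd1, a CA1 marker, ranged over 10.7 to 20.9 CPM (median 18.2) against 91.1 to 253 CPM (median 141) (-3.15, SE 0.22, adjusted p = 7.94e-09), and Spink8 was lower, at -2.30 (SE 0.25, adjusted p = 1.43e-06). Wfs1, the endoplasmic reticulum protein wolframin, is listed for CA1 yet was higher in the accumbens at 489.7 to 634 CPM (median 565) against 143 to 362 CPM (median 239.6) (1.21, SE 0.17, adjusted p = 1.78e-05). Dkk3, Grik4 and Iyd of CA3 were lower, at -2.60, -1.39 and -4.40, while Coch was higher by 1.53 (SE 0.29, adjusted p = 0.000519). In CA2, Rgs14 was lower, at -1.06 (SE 0.29, adjusted p = 0.0122) with overlap, and it was -0.64 (adjusted p = 0.0865) without hippocampus libraries 1, 4 and 6. Pcp4 was higher by 1.17 (SE 0.26, adjusted p = 0.00214), also with overlap.

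**Figure D4:**
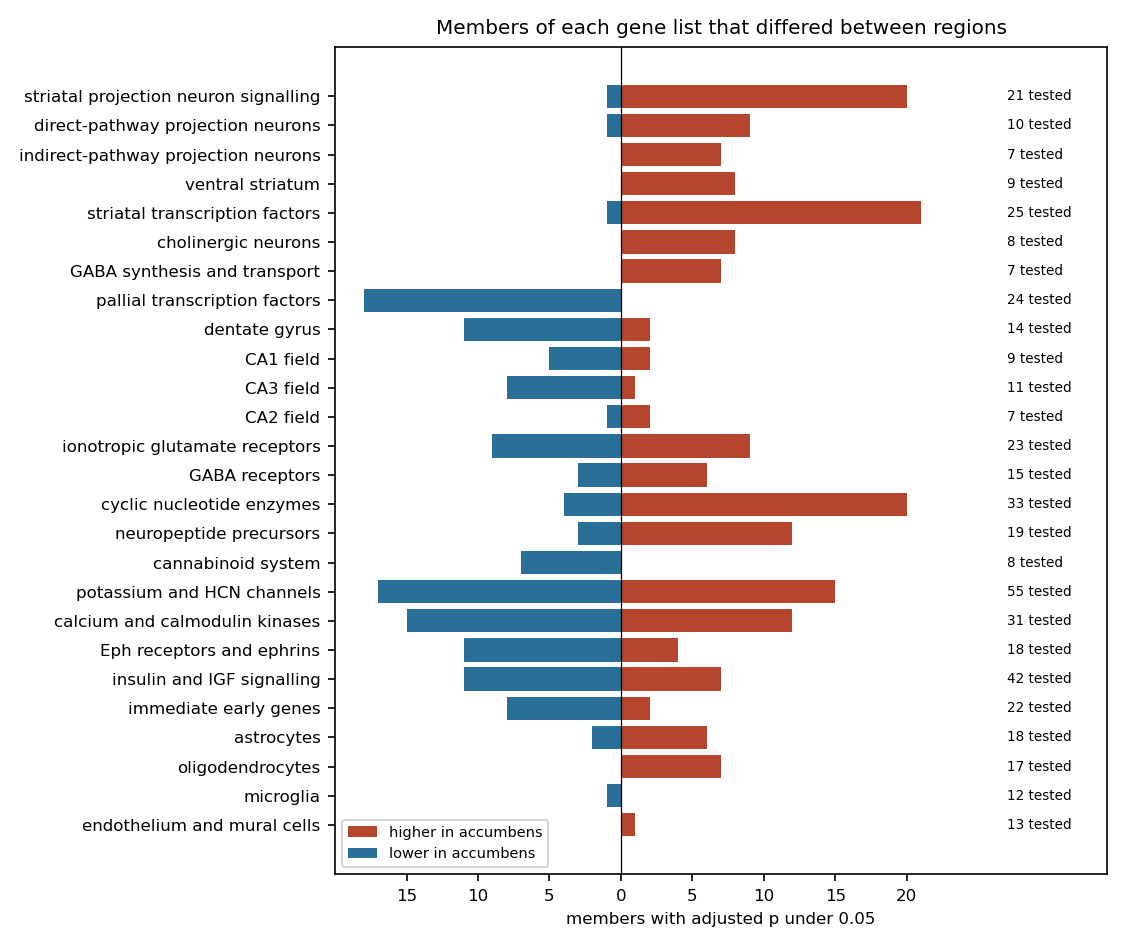
Number of members of each gene list with an adjusted p under 0.05, higher (red, to the right) or lower (blue, to the left) in the accumbens, with the number tested at the right. Projection neuron, cholinergic and GABA synthesis lists lie almost wholly to the right, and pallial factors, dentate gyrus, CA3 and cannabinoid lists to the left, while channels and receptors split.

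All 7 tested genes of GABA synthesis and transport were higher in the accumbens (median 1.37). Gad2, which makes synaptic GABA, ranged over 692 to 1113 CPM (median 970.2) against 168 to 269 CPM (median 185) (2.23, SE 0.14, adjusted p = 2.73e-09). Gad1 was higher by 1.11 (SE 0.11, adjusted p = 4.82e-07) and the vesicular transporter Slc32a1 by 2.08 (SE 0.23, adjusted p = 2.69e-06). The regions did not overlap for any of these 3 genes. Of 12 glutamate genes, 3 were higher, 3 lower and 6 not called, and the higher count was 1 without any 1 of hippocampus libraries 3, 5 or 6 or accumbens library 4. Slc17a7 was below every hippocampal value in every accumbens library, 1.58 to 703 CPM (median 32.4) against 814 to 1837 CPM (median 904), but its log2 fold change of -2.63 (SE 1.21) was not called (adjusted p = 0.131). It was -4.02 (adjusted p = 0.0246) without accumbens library 3 and -5.99 (adjusted p = 0.00102) without libraries 1 and 3. Slc17a6, the transporter of subcortical glutamate neurons, was not called (0.78, adjusted p = 0.369).

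Receptors split by subunit. Of 23 ionotropic glutamate receptor genes and their auxiliary subunits, 9 were higher and 9 lower (median -0.14), beside 16.1% and 15.7% of all genes. Gria1, the AMPA receptor subunit of plastic hippocampal synapses, was lower, at 644 to 767 CPM (median 670.2) against 1442 to 1682 CPM (median 1647) (-1.24, SE 0.09, adjusted p = 1.18e-08). The NMDA receptor subunit Grin2a was lower, at -2.20 (SE 0.19, adjusted p = 9.35e-08), the AMPA auxiliary protein Cnih2 at -1.83 (SE 0.37, adjusted p = 0.00181), Grin2b at -0.55 and Grin1 at -0.55. Higher in the accumbens were the AMPA auxiliary subunit Cacng4 (1.58, SE 0.12, adjusted p = 1.81e-08), the NMDA subunit Grin3a (1.54, SE 0.17, adjusted p = 1.8e-06) and the kainate subunit Grik3 (1.29, SE 0.14, adjusted p = 1.17e-06). Among metabotropic receptors and their scaffolds, 3 of 10 were higher and 3 lower. Grm2, an autoreceptor of granule cell terminals, was lower, at -3.33 (SE 0.28, adjusted p = 1.1e-07) and Grm4, found on striatal terminals, was higher by 2.09 (SE 0.23, adjusted p = 1.83e-06). Homer3, a scaffold for group I receptors, spanned 3.31 to 5.09 CPM (median 3.94) against 51.9 to 90.9 CPM (median 80.8) (-4.23, SE 0.17, adjusted p = 6.78e-12), and Grm5, one of those receptors, was not called.

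Of 15 GABA receptor genes, 6 were higher and 3 lower (median 0.04), beside 16.1% and 15.7% of all genes. Gabra5, the subunit of extrasynaptic hippocampal receptors, was lower, at 38.4 to 63.1 CPM (median 47.2) against 129.6 to 239.6 CPM (median 199) (-2.01, SE 0.15, adjusted p = 1.17e-08). Gabbr2 was lower, at -1.32 (SE 0.10, adjusted p = 1.74e-08). Gabrg1 and Gabrb2 were higher by 2.39 (SE 0.26, adjusted p = 3.6e-06) and 1.34 (SE 0.24, adjusted p = 0.00034). Gabrq was higher by 5.93 (SE 0.84, adjusted p = 0.000154), and the difference within the highest tag range alone was 5.47 (adjusted p = 2.9e-08) and within the middle range 9.54 (adjusted p = 0.547). Accumbens library 3 was the lowest and libraries 4 to 6 the highest both for Gabrq and for the hypothalamic peptide sum, whose part in the difference was not tested.

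Of 9 genes for dopamine synthesis, receptors and clearance, 6 were higher and 1 lower (median 1.36), beside 16.1% and 15.7% of all genes. Th, which makes the dopamine precursor, had 474 counts against 5, at 10.5 to 20.4 CPM (median 15.6) against 0 to 0.581 CPM (median 0.0897) (6.10, SE 0.39, adjusted p = 1.92e-09), and Ddc, the next enzyme, was higher by 1.36 (SE 0.23, adjusted p = 0.000194). Drd5, the D1-like receptor of the hippocampus, was the exception, at 2.78 to 4.74 CPM (median 3.79) against 17.6 to 22.4 CPM (median 20.7) (-2.43, SE 0.15, adjusted p = 1.7e-09). In the insulin libraries the difference of Th was 3.01 (adjusted p = 0.000608) at the low rate and 4.43 (adjusted p = 2.35e-06) at the high rate. For Th the interaction of region with the low rate was -3.10 and not called (adjusted p = 0.476). Of 33 enzymes that make, break down or sense cyclic nucleotides, 20 were higher and 4 lower (median 0.58). Adenylyl cyclases went in opposite directions. Adcy5, the striatal form, was 611 to 970.1 CPM (median 737) against 124 to 188 CPM (median 136) (2.33, SE 0.15, adjusted p = 1.93e-09), and Adcy1, a calcium-stimulated form, was 145 to 519 CPM (median 191) against 1934 to 3035 CPM (median 2559) (-3.41, SE 0.28, adjusted p = 2.05e-07). Pde7b and Pde1c were higher by 2.10 (SE 0.20, adjusted p = 4.56e-07) and 3.52 (SE 0.20, adjusted p = 6.8e-10).

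Of 19 neuropeptide precursors 12 were higher and 3 lower (median 0.83), beside 16.1% and 15.7% of all genes. The lower count was 5 of 23 tested without accumbens libraries 1 and 3. Trh, the thyrotropin-releasing hormone precursor, had 326 counts against 9 (4.70, SE 0.55, adjusted p = 3.3e-06). It belongs to the hypothalamic peptide list summed above and read 10.9, 3.70, 4.09, 14.4, 11.3 and 16.1 CPM in accumbens libraries 1 to 6. The part of such peptide genes in this difference was not tested. Cck, the cholecystokinin precursor, was lower, at -2.88 (SE 0.76, adjusted p = 0.0136), ranged in the accumbens over 2.63 to 90.5 CPM (median 9.59) with library 3 the highest, and was -2.60 (adjusted p = 0.0877) without hippocampus libraries 1, 4 and 6. Vip, of interneurons, was lower, at -1.22 (SE 0.40, adjusted p = 0.031), and lost the call without any of 8 single libraries (adjusted p from 0.0516 to 0.0682). Sst, somatostatin, was 45.4 to 115 CPM (median 107) against 52.3 to 132 CPM (median 70.5) and was not called (0.17, adjusted p = 0.683). Of 23 neuropeptide receptors 11 were higher and 7 lower, and the higher count became 18 of 29 tested without hippocampus library 1 or without library 5. Tacr3 and Tacr1, receptors for neurokinin B and substance P, were higher by 4.91 (SE 0.46, adjusted p = 2.43e-07) and 3.26 (SE 0.42, adjusted p = 2.42e-05). The nociceptin receptor Oprl1 was higher by 0.64, and Sstr4 and Npy1r were lower, at -1.96 (SE 0.30, adjusted p = 6.43e-05) and -1.16 (SE 0.17, adjusted p = 3.33e-05).

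Serotonin receptors split 5 higher and 3 lower among 11 tested, beside 16.1% and 15.7% of all genes. Htr2c spanned 186 to 243 CPM (median 218) against 17.4 to 83.5 CPM (median 36.1) (2.40, SE 0.27, adjusted p = 5.11e-06). Htr1b, a terminal autoreceptor and heteroreceptor, was higher by 2.33 (SE 0.17, adjusted p = 1.32e-08) and Htr1d by 4.84 (SE 0.40, adjusted p = 4.54e-08), the latter with 305 counts against 8. Htr1a was lower, at -0.89 (SE 0.13, adjusted p = 3.05e-05) and Htr3a at -1.43 (SE 0.25, adjusted p = 0.000194). Of 12 acetylcholine and adenosine receptors 3 were higher and 6 lower. Chrm1 and Chrm3, which couple to Gq, were lower, at -1.56 (SE 0.21, adjusted p = 2.02e-05) and -1.93 (SE 0.13, adjusted p = 5.57e-09). Adora1 was lower, at -1.62 (SE 0.17, adjusted p = 8.26e-07), opposite to Adora2a. Chrna5, a nicotinic subunit, was lower, at -4.92 (SE 0.46, adjusted p = 2.24e-07), with 7 counts against 185.

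Of 8 endocannabinoid genes, 7 were lower and 0 higher (median -0.82), beside 15.7% and 16.1% of all genes. Only the receptor Cnr1 was not called (265 to 442 CPM (median 329.9) against 304 to 605 CPM (median 377), -0.24, adjusted p = 0.302). Dagla, which makes 2-arachidonoylglycerol, ranged over 63.6 to 103 CPM (median 72.7) against 334 to 469 CPM (median 390.4) (-2.36, SE 0.14, adjusted p = 7.12e-10). Faah, which degrades anandamide, was lower, at -2.67 (SE 0.24, adjusted p = 2.95e-07) and Napepld, which can make it, at -2.32 (SE 0.15, adjusted p = 2.02e-09). Mgll, which degrades 2-arachidonoylglycerol, was lower, at -0.52 (SE 0.14, adjusted p = 0.00796) with overlapping regions.

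Of 55 potassium and HCN channel genes, 15 were higher and 17 lower (median 0.03), beside 16.1% and 15.7% of all genes. Kcnj6 and Kcnj3, subunits of G protein-gated inward rectifiers, were lower, at -2.33 (SE 0.22, adjusted p = 3e-07) and -1.84 (SE 0.32, adjusted p = 0.000471), and the auxiliary subunit Kcnab2 at -1.93 (SE 0.20, adjusted p = 1.22e-06). Kcna5 and Kcnh4 were higher by 3.75 (SE 0.27, adjusted p = 1.04e-08) and 2.63 (SE 0.19, adjusted p = 1.1e-08). Of 24 sodium and calcium channel genes, 9 were higher and 10 lower, and the higher count was 4 without hippocampus libraries 1, 4 and 6. Scn9a and Cacna2d2 were higher by 2.83 (SE 0.30, adjusted p = 1.22e-06) and 2.74 (SE 0.26, adjusted p = 7.32e-07), and Scn3b was lower, at -1.47 (SE 0.10, adjusted p = 6.07e-09). Of 31 calcium-binding proteins and calcium-dependent kinases, 12 were higher and 15 lower (median -0.27). Camk2a, the kinase of synaptic plasticity, was 774 to 1877 CPM (median 975) against 4215 to 5600 CPM (median 5300) (-2.24, SE 0.20, adjusted p = 1.1e-07). Camk2d, another isoform gene of the same kinase, was higher by 1.99 (SE 0.22, adjusted p = 2.69e-06). Hpca (hippocalcin) and Nrgn (neurogranin) were lower, at -2.29 (SE 0.25, adjusted p = 3.43e-06) and -2.29 (SE 0.43, adjusted p = 0.0012), Prkca at -1.45 and the calcium release channel Ryr2 at -1.38.

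Genes that guide axons and organise synapses also differed. Of 18 Eph receptors and ephrins 11 were lower and 4 higher (median -0.84), beside 15.7% and 16.1% of all genes. Epha7 was at 51.9 to 90.8 CPM (median 70.3) against 343 to 463 CPM (median 394) (-2.47, SE 0.15, adjusted p = 1.39e-09). Its ligand Efna5 was higher by 2.48 (SE 0.24, adjusted p = 3.19e-07). Of 38 semaphorins, plexins and other guidance genes 16 were higher and 14 lower. Robo3 was lower, at -3.60 (SE 0.24, adjusted p = 3.08e-09) and the Robo ligand Slit1 at -2.20 (SE 0.17, adjusted p = 1.63e-08), while Sema3f and the netrin receptor Dcc were higher by 2.82 (SE 0.30, adjusted p = 1.1e-06) and 2.47 (SE 0.35, adjusted p = 2.51e-05). Of 28 synapse organisers 12 were lower and 7 higher, and the higher count was 4 without hippocampus library 4, hippocampus library 5 or accumbens library 6. Nptx1 and its receptor Nptxr, pentraxins that cluster AMPA receptors, were lower, at -3.04 (SE 0.33, adjusted p = 6.1e-06) and -1.81 (SE 0.29, adjusted p = 0.000219). Lrrtm3 and Nrxn3 were higher by 2.09 (SE 0.14, adjusted p = 3.9e-09) and 0.62 (SE 0.10, adjusted p = 0.000139). Among 22 neurotrophins and trophic receptors 8 were higher and 7 lower. Ntf3, neurotrophin 3, had 3 counts in the accumbens and 135 in the hippocampus, a ratio of 56.2 with a 95% counting interval from 18.8 to 276.

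Insulin and IGF signalling is the pathway the infusions act on. Of its 42 genes tested, 7 were higher, 11 lower and 24 not called (median -0.04), beside 16.1% higher and 15.7% lower among all genes tested. The higher count was 3 without hippocampus libraries 1, 4 and 6. Insr, the insulin receptor, measured 124 to 146 CPM (median 135) in the accumbens and 68.5 to 128 CPM (median 102) in the hippocampus (0.42, SE 0.12, adjusted p = 0.0123). The regions overlapped for Insr, and it was 0.28 (adjusted p = 0.103) without those 3 libraries. Igf1r and the adaptor Irs1 were not called (0.19 and -0.36, adjusted p = 0.326 and 0.116), though Igf1r was called without hippocampus library 5 (0.32, adjusted p = 0.0398). Irs4, which differs from other adaptors in its restricted expression (chromosome X, 141710998 to 141725263), had 1653 counts against 9 (6.98, SE 0.90, adjusted p = 6.77e-05). Every accumbens library exceeded every hippocampal one, the highest of which was library 6 at 1.36 CPM. Within the highest tag range alone the log2 fold change of Irs4 was 6.80 (adjusted p = 7.08e-11), and within the middle range 7.03 (adjusted p = 0.269). Grb10, an imprinted adaptor that dampens insulin receptor signalling, spanned 128 to 298 CPM (median 271) against 32 to 80.6 CPM (median 50.4) (2.21, SE 0.23, adjusted p = 1.67e-06), with library 3 again the lowest of the accumbens. Pik3r1, a regulatory subunit of PI3-kinase, was higher by 0.70 (SE 0.10, adjusted p = 1.67e-05). Lower were Cblb, a ubiquitin ligase (-1.48, SE 0.13, adjusted p = 8.25e-08), and the binding protein Igfbp4 (-1.02, SE 0.19, adjusted p = 0.000428).

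Of 27 genes of glucose uptake and glycolysis 3 were higher, 5 lower and 19 not called, a share called near the 31.8% of all genes tested. Slc2a4, the insulin-responsive transporter GLUT4, was low in both regions and higher in the accumbens, 3.01 to 8.54 CPM (median 4.6) against 1.26 to 2.39 CPM (median 1.45) (1.59, SE 0.30, adjusted p = 0.000413). In the insulin libraries its regional difference was 0.10 (adjusted p = 0.836) at the low rate and 1.13 (adjusted p = 0.00503) at the high rate. The interaction of region with the low rate was -1.49 and not called (adjusted p = 0.439). Slc2a1, the transporter of the blood-brain barrier and glia, was not called (0.11, adjusted p = 0.55). Pfkl and Hk1, early glycolytic enzymes, were lower, at -1.27 (SE 0.22, adjusted p = 0.000304) and -0.55 (SE 0.13, adjusted p = 0.00302).

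Of 12 corticosteroid genes 3 were higher and 5 lower, beside 16.1% and 15.7% of all genes. Nr3c1, the glucocorticoid receptor, was higher by 0.46 (SE 0.14, adjusted p = 0.015) with overlap, in contrast to Nr3c2, and Hsd11b1, which regenerates active glucocorticoid, was lower, at -3.28 (SE 0.20, adjusted p = 8.91e-10). Of 14 retinoid genes 5 were higher and 3 lower, and the lower count was 5 of 15 tested without accumbens library 3. Cyp26b1, which clears retinoic acid, and the receptor Rara were lower, at -1.96 (SE 0.25, adjusted p = 6.72e-06) and -1.45 (SE 0.22, adjusted p = 5.51e-05), opposite to Rarb and Rxrg.

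Of 22 immediate early genes, which neurons induce with activity, 8 were lower, 2 higher and 12 not called (median -0.36). Among all genes 15.7% were lower and 16.1% higher. Bdnf was 4.87 to 21.6 CPM (median 7.93) against 44 to 73.7 CPM (median 55.1) (-2.62, SE 0.28, adjusted p = 2.59e-06). Ptgs2, Nr4a3, Nr4a2, Jun and Arc were lower, at -3.07, -2.15, -2.10, -1.57 and -1.22. Accumbens library 3 was the highest of its region for all 6 of these genes. Fos and Fosb were higher by 1.12 (SE 0.27, adjusted p = 0.00344) and 0.86 (SE 0.27, adjusted p = 0.0222), both with overlapping regions, and Fosb was 0.69 (adjusted p = 0.0503) without accumbens library 3. Npas4 was not called (0.53, adjusted p = 0.202).

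Several genes of large difference belonged to none of these lists. Serpina9, a serine protease inhibitor gene, had 305 counts in the accumbens and 0 in the hippocampus, and was at least 83.4-fold higher with 3 counts over the 6 hippocampal libraries as the limit. Cd4, best known from T cells, had 298 counts against 3, a ratio of 79.5 with a 95% counting interval from 26.9 to 388. On the hippocampal side, Olfml2b ranged over 2.69 to 5.78 CPM (median 3.59) against 119.6 to 189.9 CPM (median 152) (-5.30, SE 0.17, adjusted p = 7.68e-13). Shisa6, an AMPA receptor auxiliary protein, was 18.7 to 28.3 CPM (median 21.7) against 278 to 344 CPM (median 303) (-3.78, SE 0.12, adjusted p = 7.68e-13). Thsd4 was lower, at -3.69 (SE 0.14, adjusted p = 6.78e-12), the adrenergic receptor Adra1d at -5.70 (SE 0.33, adjusted p = 9.77e-10) and the matrix protein Smoc2 at -5.11 (SE 0.26, adjusted p = 1.98e-10).

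Other genes named by size on that side had few accumbens counts. Slc9a4, a sodium-proton exchanger, had 6 counts against 462, and Sebox, a homeobox gene, 6 against 217. Pla2g2f, a secreted phospholipase, had 2 counts against 208, a ratio of 130 with a 95% counting interval from 35.5 to 1080. Prdm8, Lefty1 and Slc26a4 were lower, at -5.31, -5.28 and -5.04. Ttr was lower, at -6.25 (SE 1.502, adjusted p = 0.00837) with overlapping regions, and it was -2.37 (adjusted p = 0.105) without hippocampus libraries 1, 4 and 6.

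Microglial and vascular lists held 1 called gene each. Of 12 microglia genes 1 was lower, and of 13 endothelial and mural genes 1 was higher, against 15.7% and 16.1% of all genes. Of 18 astrocyte genes 6 were higher and 2 lower, with 1 higher without hippocampus libraries 1, 4 and 6 and 4 lower without hippocampus library 1. Gfap, the intermediate filament of astrocytes, was 21.1 to 50.5 CPM (median 29.9) against 109.5 to 215 CPM (median 149) (-2.24, SE 0.21, adjusted p = 3.61e-07). Aqp4 was lower, at -0.52 (SE 0.16, adjusted p = 0.0185) with overlap, and was -0.45 (adjusted p = 0.0532) without hippocampus library 6. Itih3 and Agt, the angiotensin precursor, were higher by 2.47 (SE 0.36, adjusted p = 0.000115) and 1.64 (SE 0.41, adjusted p = 0.00773), both lowest in accumbens library 3, and Agt was 1.74 (adjusted p = 0.0651) without hippocampus libraries 1, 4 and 6. Pdgfra, the receptor of oligodendrocyte precursors, was higher by 0.67 (SE 0.10, adjusted p = 5.85e-05). Of 6 choroid plexus genes tested 2 were lower, Ttr and Kl, the latter at -2.17 (SE 0.26, adjusted p = 5.47e-06), and 3 were higher without hippocampus libraries 1, 4 and 6.

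The same regional comparison was made in libraries from insulin-infused mice, which share no library with the saline comparison. At the low rate, 4 mU/kg/min, 2942 of 13351 genes (22.0%) differed between 6 accumbens and 6 hippocampus libraries, and 572 (4.28%) exceeded a log2 fold change of 1. At the high rate, 12 mU/kg/min, 2949 of 13275 genes (22.2%) differed and 664 (5.00%) exceeded it. Of the 425 genes higher beyond a log2 fold change of 1 under saline, 402 were tested at the low rate and all 402 had the same sign, 390 with an adjusted p under 0.05. At the high rate 401 were tested, 401 had the same sign and 393 passed. By the stricter rule itself, 276 (64.9%) of the 425 were called again at the low rate and 311 (73.2%) at the high rate, where 2.37% and 2.74% of all genes tested were. Of the 364 lower genes, 350 were tested at the low rate with 350 of the same sign and 345 passing, and 356 at the high rate with 356 of the same sign and 353 passing. By the stricter rule 223 (61.3%) and 275 (75.5%) of these were called again, against 1.92% and 2.26% of all genes. Of all 2145 genes higher under saline at an adjusted p under 0.05, 1220 (56.9%) were higher and 1 was lower, at the low rate by the same rule, and 1229 (57.3%) and 0 at the high rate, beside 11.2% and 10.9% of all genes called higher there. Of the 2085 lower genes 1170 (56.1%) and 1352 (64.8%) were called lower again and 0 higher, beside 10.9% and 11.3% of all genes called lower. The log2 fold change of Drd1 was 5.08 at the low and 5.10 at the high rate, that of Neurod6 -4.86 and -4.73, and that of Irs4 6.64 at the low rate. Irs4 and Nkx2-1 at the high rate, Trh at the low rate and Gbx1 at both failed the low-count filter and were not tested. Some named genes called under saline were called at neither insulin rate. Dcc was 1.16 (adjusted p = 0.132) at the low and 0.21 (adjusted p = 0.881) at the high rate. Others were Ddc (0.08 and 0.50), Gabrb2 (0.88 and 0.28) and Insr (0.37 and 0.06), with adjusted p of 0.142 or above. The same held for Arc (-0.92 and -0.71), Vip (-0.96 and -1.09), Nr3c1 (0.36 and -0.04), Plxdc1 (0.11 and 0.34) and Bcl11b (0.125 and -0.23). It also held for Mgll (-0.36 and -0.11), Prkcd (-1.10 and -0.27) and Coch (0.69 and 0.77). The adjusted p of these further genes was 0.0664 or above.

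The interaction of region and infusion, over 36 libraries and 14354 genes, called 0 genes at either rate with edgeR's quasi-likelihood test. At an unadjusted p under 0.05 there were 645 genes at the low rate and 284 at the high rate, and limma-voom called 0 with 588 and 276. Each of these counts is below 0.05 of the 14354 genes, the share that chance alone would give on average. Mal, Efhd1, Ppfibp2 and Galnt6 were among the 5 genes of smallest p at the low rate, each with an adjusted p of 0.326. Mal, a myelin protein, averaged 281 CPM in the accumbens and 177 in the hippocampus under saline and 250 and 329 CPM at the low rate (interaction -1.06, SE 0.23). Efhd1 averaged 20.6 and 12.7 CPM under saline and 17.9 and 28.8 CPM at the low rate. Galnt6 and Ppfibp2 gave interactions of -1.51 and -1.21. At the high rate the 5 were Mybpc2, Tnnt3, Tram2, Tspan2 and Mal, with adjusted p of 1. Mybpc2 and Tnnt3, genes of skeletal muscle, averaged 4.38 and 6.11 CPM in the accumbens at the high rate against 1.44 and 1.87 under saline. For Tram2 the interaction was -1.52 and for Tspan2, a tetraspanin of oligodendrocytes, it was -0.77.

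Oligodendrocyte genes lay mostly on opposite sides of 0 under saline and at the low insulin rate. Under saline 7 of 17 were higher in the accumbens and 0 lower (median 0.49), 16 of the 17 having a positive log2 fold change, where 16.1% of all genes were called higher. Mbp, myelin basic protein, was 1932 to 2954 CPM (median 2488) against 1116 to 2437 CPM (median 1961) and was not called (0.36, adjusted p = 0.0985), but was without hippocampus library 1 (0.44, adjusted p = 0.0369). At the low rate 0 of the 17 were higher and 5 lower (median -0.56), and all 17 lay below 0, where 10.9% of all genes were called lower. The 5 were Enpp2 (-3.38, adjusted p = 0.00118), Myrf, Mbp, Mag and Cldn11. At the high rate only Enpp2 was called lower, against 11.3% of all genes, and the median of the 17 was -0.14. Its difference there was -3.18 (adjusted p = 0.00452), with 222 to 7017 CPM in the hippocampus. In the interaction with the low rate all 17 were negative with a median of -1.06 and an unadjusted p under 0.05, but the smallest adjusted p was 0.326. Among all 14354 genes, 645 had an unadjusted p under 0.05 there. At the high rate all 17 were negative and 8 had an unadjusted p under 0.05, as had 284 of the 14354 genes. At the high rate Mal averaged 254 CPM in the accumbens and 282 CPM in the hippocampus. Differences between infusions within a region were not tested here. The saline count of higher genes was 13 of 17 without hippocampus library 1 and 12 without libraries 1, 4 and 6. Enpp2, which oligodendrocytes share with the choroid plexus, was the 1 member below 0 under saline, with 1175 and 1682 CPM in hippocampus libraries 4 and 6 and at most 271 CPM in the other 4. It was not called (-1.44, adjusted p = 0.0786), but was without hippocampus library 2 or 3 (-1.62 and -1.63, adjusted p = 0.0491 and 0.0456). Libraries 4 and 6 were also the highest for Ttr, whose part in this was not tested.

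**Figure D5:**
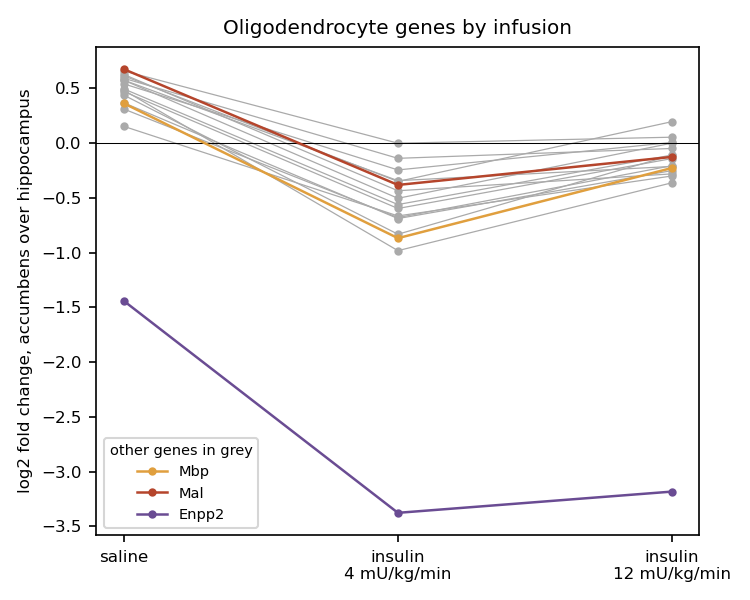
Log2 fold change (accumbens over hippocampus) of the 17 oligodendrocyte genes under saline and at the 2 insulin rates, 1 line per gene. Except for Enpp2, the lines lie above 0 under saline and at or below 0 at the low rate.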

How the data were processed

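Whole-tissue RNA was sequenced in 52 libraries. The deposited table holds raw read counts per gene, made by the authors with STAR and featureCounts on GRCm38.p4, per the submitters' processing notes. Their versions, strand setting and annotation: not given in the sources used here. Rows without a gene symbol held 0.127% of the counts.

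Libraries were grouped by their titles, and replicate numbers follow accession order. Counts were tested with edgeR 4.0.16 (R 4.3.3), using TMM scaling, filterByExpr and the robust quasi-likelihood test over the 12 saline libraries, with Benjamini-Hochberg adjustment and a threshold of 0.05. The stricter test was glmTreat against a log2 fold change of 1. DESeq2 1.42.0, limma 3.58.1, other scaling and filters, tag ranges and left-out libraries were alternatives. On simulated data for this comparison (13319 genes), 38%, 64%, 100% and 96% of genes changed by a log2 of 0.585, 1, 2 and 4 were recovered, 50 genes each, with 11 unchanged genes called. Depths of 3240822 to 7258565 counts limit low genes most. Intervals on ratios of counts cover counting error only.

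The genes named were up to 15 in each direction with the largest fold and 5 with the smallest p among those past the stricter test, with a mean of at least 5 CPM in the higher region, plus Drd1, Neurod6, list members with the largest called changes or going against their list, and the 5 with the smallest p in each interaction. Some genes that this rule selects are not reported here. Other list members were named after their values were seen. The comparison and the lists were chosen with earlier results of these data known.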

Additional observations from a re-analysis of the deposited data

Results flagged for a closer look

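In each region the 6 libraries were examined gene by gene for 1 library whose gap to its nearest neighbour exceeded 0.625 of the group's range, Dixon's critical value. Of 388 groups, 67 (17.3%) had such a library, where chance gives about 1 in 20 for normally distributed values. Groups with a count in 1 library only, such as Lct in the accumbens and Nkx2-1 in the hippocampus, exceed the value by construction. Genes are not independent, so the count describes these libraries only. Accumbens library 3 accounted for 25 of the high values and 1 of the low ones, and hippocampus library 1 for 10 high values and 1 low value. Explanations were not tested.

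In accumbens library 1 the highest value of the region stood apart at 17.6 CPM for Ttr, 4.4 CPM for Smoc2 and 8.56 CPM for Robo3. In accumbens library 2 the highest value of the region stood apart at 0.195 CPM for Lct, 736 CPM for Pde10a, 160.0 CPM for Foxp2 and 249 CPM for Pde7b. In accumbens library 2 the lowest value of the region stood apart at 8.77 CPM for Napepld. In accumbens library 3 the highest value of the region stood apart at 0.876 CPM for Slc9a4, 17.2 CPM for Neurod6, 1.46 CPM for Sebox, 2.04 CPM for Lefty1, 78.2 CPM for Neurod2, 105 CPM for Tbr1, 428 CPM for Mef2c, 75.6 CPM for C1ql3 and 703 CPM for Slc17a7. The same held in accumbens library 3 at 767 CPM for Gria1, 266 CPM for Grin2a, 20.7 CPM for Grm2, 519 CPM for Adcy1, 90.5 CPM for Cck, 17.8 CPM for Vip, 14 CPM for Sstr4, 219 CPM for Chrm1 and 183 CPM for Kcnj3. The same held in accumbens library 3 at 1877 CPM for Camk2a, 395 CPM for Prkca, 21.6 CPM for Bdnf, 13.7 CPM for Ptgs2, 31.8 CPM for Npas4, 296 CPM for Nptx1 and 573 CPM for Nptxr. In accumbens library 3 the lowest value of the region stood apart at 25.1 CPM for Six3. In accumbens library 6 the highest value of the region stood apart at 22.1 CPM for Slc10a4, 14.5 CPM for Slc18a3, 62.8 CPM for Ngfr and 7.02 CPM for C1ql2. In hippocampus library 1 the highest value of the region stood apart at 7.48 CPM for Sp9, 449.5 CPM for Neurod2, 106 CPM for C1ql2, 93.3 CPM for Slc32a1, 1837 CPM for Slc17a7, 437 CPM for Cnih2, 107 CPM for Grm2 and 28.7 CPM for Sstr4. The same held in hippocampus library 1 at 346 CPM for Adora1 and 488 CPM for Hk1. In hippocampus library 1 the lowest value of the region stood apart at 5.98 CPM for Drd1. In hippocampus library 2 the highest value of the region stood apart at 0.359 CPM for Gbx1, 0.179 CPM for Drd3, 42.1 CPM for Neurod1, 218 CPM for Calb1 and 605 CPM for Cnr1. In hippocampus library 3 the highest value of the region stood apart at 42.4 CPM for Kcnj6. In hippocampus library 4 the highest value of the region stood apart at 0.322 CPM for Nkx2-1 and 0.966 CPM for Isl1. In hippocampus library 5 the highest value of the region stood apart at 74 CPM for Grik3 and 84.4 CPM for Oprl1. In hippocampus library 6 the highest value of the region stood apart at 1.36 CPM for Irs4, 3.1 CPM for Gabrq, 1219 CPM for Ttr, 136 CPM for Zic1, 3.29 CPM for Chat, 1.55 CPM for Slc18a3, 15.9 CPM for Slc5a7 and 3.49 CPM for Kcna5.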

How the results depend on the processing

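The count of 4230 genes ranged from 3721 (without accumbens library 5) to 4628 (without accumbens library 3) when 1 library at a time was left out, and was 3719 to 5017 over the other alternatives fitted, with 2 exceptions. The middle tag range alone (2 libraries against 2) called 1353 and the test against a log2 fold change of 1 called 789. At an adjusted p of 0.01 the count was 2934. Of the 789 genes, 785 to 789 kept an adjusted p under 0.05 with 1 library left out and 701 in the middle tag range. Of 181 called genes among the 195 named, 176 kept the call in every leave-one-out fit and 134 in every alternative. Neurod6 lost it in the middle tag range (-4.33, adjusted p = 0.299). In that range Tbr1 changed sign (0.038) and so did Enpp2 (0.22). Mef2c changed sign in the highest tag range (-0.33), without accumbens libraries 1 and 3 (-0.12) and without these and hippocampus libraries 1, 4 and 6 (-0.25). Enpp2 did so without hippocampus libraries 1, 4 and 6 (0.002, adjusted p = 0.993) and without both sets (0.052). The cause was not tested. Choices of libraries left out by Slc17a7, Ttr or Zic1 level were made after seeing the data. Replicate numbers follow accession order, and the labels pair no libraries. Runs of neighbouring tag numbers held libraries of both regions except for the fifth of each, and with the tag run as a batch term 4728 genes were called. Across genes, a library's deviation from its region's mean correlated with GC content at 0.55 and 0.64 (Spearman) in library 1 of accumbens and hippocampus and at -0.58 and -0.66 in library 2. Low counts limit folds of genes near 0 in 1 region.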
